A study of Mus musculus with 6 samples.

Results

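Chitinases and chitinase-like lectins were followed in the antrum, the gastrin-producing lower part of the stomach, of mice of 3 strains. The genes were Chil4, Chil3, Chil1 and Chia1. All probe sets that the platform annotation assigns to any of them were taken, which gave 5 of the 22690 probe sets in the table, for 4 of 13319 gene symbols. One each belonged to Chil4, Chil3, Chil1 and Chia1, and 1 was assigned to Chil4 and Chil3 together. These genes were selected on the measured difference between Satin and the other strains, in which Chil4 had the highest rise of all probe sets tested. Their differences between Satin and the other strains are therefore descriptions without a test, and the contrast between Beige and BL6, which played no part in that choice, was tested.

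The groups were Satin, Beige and BL6 (titled C57/BL6), with 2 Affymetrix arrays of total RNA from each, and the labels name the Beige and BL6 samples as controls. Satin is a coat texture mutant of the forkhead factor gene Foxq1, and Beige is a coat colour mutant of Lyst, a lysosomal trafficking regulator gene. The series concerned gastric cell lineages in relation to FOXQ1. The alleles, ages, sexes and genetic backgrounds of the mice, and whether RNA was pooled, are not stated in the labels, while the design text counts 2 mice of each strain. The p-values cover only the scatter among these arrays, and that scatter may be technical. In whole antrum, fewer cells of a type and less RNA per cell cannot be told apart.

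Proteins of glycoside hydrolase family 18 share a barrel-shaped domain that binds chitin, the N-acetylglucosamine polymer of arthropods and fungi. Chia1 encodes acidic mammalian chitinase, an active enzyme that chief cells of the mouse stomach secrete into gastric juice. Chil1 (formerly Chi3l1, BRP-39), Chil3 (Ym1) and Chil4 (Ym2) have kept the fold but lost the catalytic acid, so they bind sugars without cutting them. Chil3 is a classic product of mouse macrophages treated with interleukin 4, and is also made by neutrophil precursors. Chil4 is its close paralogue, known from epithelium of the mouse airway and stomach.

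The upstream sequences of Chil4 and Chil3 are shown because the paralogues are so alike, while their probe sets differed in the data below. They are the 250 bases before the start of each gene in RefSeq for GRCm38.p6, the C57BL/6J assembly, read 5′ to 3′ on the gene's strand. Both lie on the minus strand of chromosome 3, Chil4 at chr3:106219480-106219729 and Chil3 at chr3:106167565-106167814. Capitals mark matches to TTCNNNGAA, the spacing of many STAT sites, to TGTTTG (on the other strand), a core of forkhead sites, and to TATAAAA, the TATA box.
Chil4: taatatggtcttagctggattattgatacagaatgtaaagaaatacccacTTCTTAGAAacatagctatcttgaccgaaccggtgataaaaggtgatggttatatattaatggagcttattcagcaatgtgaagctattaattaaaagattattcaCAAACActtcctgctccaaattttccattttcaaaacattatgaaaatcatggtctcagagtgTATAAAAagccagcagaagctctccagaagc
Chil3: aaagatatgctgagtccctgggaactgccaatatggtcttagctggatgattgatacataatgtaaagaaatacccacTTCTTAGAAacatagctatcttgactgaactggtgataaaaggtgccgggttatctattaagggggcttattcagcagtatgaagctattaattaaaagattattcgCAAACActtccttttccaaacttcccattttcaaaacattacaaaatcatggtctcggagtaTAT

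The windows of 300 bases, which run from 250 before to 50 after the start, were 91.9% identical between Chil4 and Chil3 over 273 aligned columns. Both held 1 match of the STAT spacing and 1 of the forkhead core, and these did not overlap other matches. The TATA box began 31 bases before the start of Chil4 but 3 bases before that of Chil3, where it runs past the printed end, so the annotated starts of the paralogues are offset. Of 32851 such windows of mouse genes, searched on both strands, 8.30% held the STAT spacing, 18.2% this forkhead core and 5.48% the TATA box. A second forkhead core, TGTTTA, found in 13.4% of windows, and the STAT6 element, in which TTC and GAA stand 1 base further apart, found in 6.95%, had no match in any of the 4 genes. Of all these motifs Chia1 held the TATA box alone, and Chil1 the first forkhead core alone. These are matches of letters in the reference strain, not measured binding sites, and the Satin and Beige sequences are not analysed here.

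The arrays differed in overall brightness. Median deposited signals were 74.2 and 58.6 in Satin, 49.5 and 49.0 in Beige, and 47.6 and 38.2 in BL6. RNA integrity, read from the Gapdh 5'/3' ratio, was lowest for BL6 replicate 1 at 0.526, and the others lay between 0.988 and 1.18. Of the coat genes, Foxq1 averaged 10.44 in Satin, 9.63 in Beige and 10.15 in BL6 on the normalised log2(signal + 32) scale, and its difference of 0.55 between Satin and the mean of the others did not pass (limma, adjusted p = 0.208). Lyst averaged 5.88, 6.49 and 6.63 in the same order (difference -0.68, adjusted p = 0.431). A transcript level does not check either mutation. Of antral marker genes, the hormone gene Gast had signals of 1456.9 and 2580.4 in Satin, against 3724.3 and 5086.6 in Beige and 3298.8 and 3392.4 in BL6. It was detected in all strains and was lower in Satin (difference -1.40, limma adjusted p = 0.0257), and its part in the Chil4 difference was not tested. The Gast call was lost without Satin replicate 1 (adjusted p = 0.190), either Beige array (0.166 and 0.163) or BL6 replicate 1 (0.0501). The surface mucous cell genes Gkn1, Gkn2 and Tff1 had signals of 6935.7 or more on all arrays.

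Chil4 had signals of 7124.5 and 8991.4 on the Satin arrays, against 20.6 and 29.6 in Beige and 61.4 and 111.8 in BL6, as deposited. After quantile normalisation both Satin arrays were above all 4 others, by any amount, for 11.7% of all probe sets tested. That share was not counted for the signals as deposited, on which the Satin arrays were brighter. For Chil4 the lower Satin signal as deposited was 63.7 times the highest signal of the control strains. By mean signal the strains ordered Satin, BL6, Beige. On the normalised scale Chil4 averaged 12.95 ± 0.22 in Satin, 5.88 ± 0.21 in Beige and 7.06 ± 0.56 in BL6 (mean ± SD, n = 2 each). The difference was 7.07 (SE 0.27) between Satin and Beige and 5.89 (SE 0.27) between Satin and BL6, and both share the Satin arrays. On the Satin arrays 32 and 6 other probe sets were brighter, so the signal was near the top of the range. In Beige it was close to 5.74, the level below which the dimmest 30% of probe sets lie. Both ends can make the difference too small, and no exact fold is given.

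The probe set that Chil4 and Chil3 share gave 5720.3 and 9782.6 in Satin, 105.8 and 27.6 in Beige, and 44.4 and 75.4 in BL6. Satin was again apart, by at least 54.1 times between its lower array and the highest control array, while the Beige arrays enclosed both BL6 arrays. On Satin replicate 2 no other probe set was brighter. The normalised means were 12.82 ± 0.66 in Satin, 6.62 ± 0.92 in Beige and 6.68 ± 0.49 in BL6 (SD, n = 2 each), and Satin exceeded the average of the control strains by 6.17 (SE 0.38).

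Chil3, by its own probe set, differed less between Satin and the other strains than Chil4 did, and more between the arrays of Satin and of Beige. Its signals were 115.4 and 412.8 in Satin, 109.7 and 1.9 in Beige, and 3.3 and 6 in BL6. Satin replicate 2 stood highest and the BL6 arrays were both near the bottom, but Beige replicate 1 was almost as bright as Satin replicate 1. After normalisation those 2 arrays changed places, at 7.32 for Beige replicate 1 and 6.84 for Satin replicate 1, so the strains overlapped. The means were 7.67 ± 1.18 in Satin, 6.21 ± 1.57 in Beige and 5.23 ± 0.11 in BL6 (SD, n = 2 each). Satin exceeded the mean of the control strains by 1.95 (SE 0.61), a value that dropped to 1.12 when Satin replicate 2 was left out. It was 2.78 without Satin replicate 1, and 1.39 to 2.51 without either Beige array. Chil3 passed the filter on dim probe sets (5.74) through the Satin arrays, since the average of the control strains was 5.72.

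The shared probe set was also brighter on Beige replicate 1 than on Beige replicate 2, as Chil3 was, whereas the probe set of Chil4 alone was not (20.6 against 29.6). Over the 6 arrays the shared probe set correlated at 0.975 with Chil4 and at 0.803 with Chil3, and Chil4 correlated at 0.657 with Chil3, on the normalised scale. With 6 arrays, which share their normalisation, these values are descriptions. How much of the shared signal comes from each paralogue cannot be told apart.

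Chil1 was dim throughout, with signals of 22.1 and 24 in Satin, 8.6 and 16.2 in Beige, and 3.2 and 3.8 in BL6. As deposited both Satin arrays were above the Beige and BL6 arrays, whereas after normalisation Satin replicate 1 (5.55) lay below Beige replicate 2 (5.64). The mean of 5.45 over the arrays was below the filter on dim probe sets, so Chil1 was not tested. The normalised means were 5.66 ± 0.15 in Satin, 5.52 ± 0.17 in Beige and 5.18 ± 0.04 in BL6 (SD, n = 2 each). Satin array medians were higher too. Chil1 exceeded the control strains by 0.31 after quantile normalisation, and by 0.04 relative to the median of all probe sets with the arrays as deposited.

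Chia1 was near the top of the signal range on every array. Its signals were 8732.1 and 7790.9 in Satin, 8085.7 and 8170 in Beige, and 6859.4 and 9043.2 in BL6. The Satin and Beige arrays lay between the BL6 arrays, and the highest signal was 1.32 times the lowest. The normalised means were 13.00 ± 0.07 in Satin, 13.03 ± 0.03 in Beige and 12.91 ± 0.09 in BL6 (SD, n = 2 each), and Satin differed from the mean of the control strains by 0.03 (SE 0.13). Between 11 and 27 probe sets were brighter, so a difference could be too small here as well. The direction depended on the scaling. With median centring Satin was lower by 0.29, and relative to the median of all probe sets it was lower by 0.39 with the arrays as deposited.

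**Figure D1:**
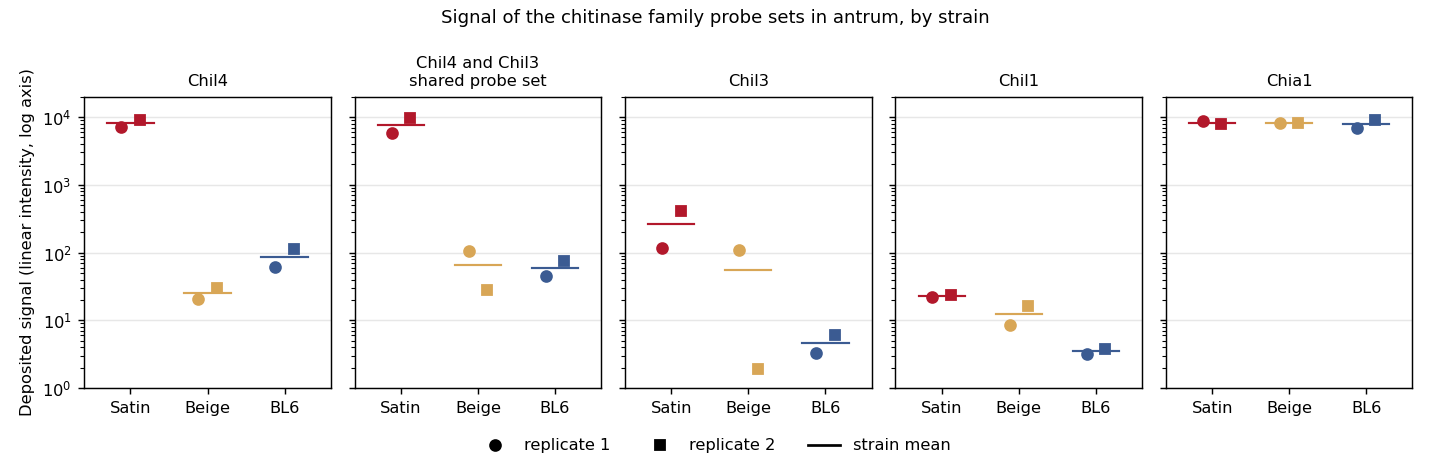
Deposited signal (linear intensity on a log axis) of each chitinase family probe set on the 6 arrays, by strain; circles are replicate 1, squares replicate 2 and lines the strain mean. Chil4 and the shared probe set lie at 5720.3 or more in Satin and at 111.8 or less elsewhere, Chil3 is split between arrays of a strain, and Chia1 is level.

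After quantile normalisation 4 of the 5 probe sets passed the filter. Of all 15838 probe sets tested, 1.02% had a limma adjusted p under 0.05 for Satin against the average of Beige and BL6 (55 higher, 106 lower). Since that contrast led to the choice of the genes, no count of family probe sets is given for it. Leaving out Satin replicate 1 gave 54 calls over all probe sets, Satin replicate 2 gave 88, Beige replicate 1 gave 53, Beige replicate 2 gave 48 and BL6 replicate 2 gave 407. The Chil4 difference of 6.48 lay between 6.28 and 6.68 when each of the 6 arrays was left out in turn. The split of calls over all probe sets depended on the scaling. It was 1946 higher and 70 lower as deposited, 60 higher and 52 lower after median centring, and 3404 higher and 75 lower after scaling on hybridization controls.

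The contrast between the control strains was not used to choose the genes, and there the family was tested. Chil4 averaged lower in Beige than in BL6, with a difference of -1.18 (95% interval -1.78 to -0.57). It did not pass, with a limma unadjusted p = 0.00175 and an adjusted p = 0.859 over all probe sets tested. Over the alternatives the adjusted p lay between 0.0975, without BL6 replicate 1, and 1.00. The shared probe set differed by -0.05 (interval -1.05 to 0.95, adjusted p = 0.991), and Chia1 by 0.12 (interval -0.22 to 0.46, adjusted p = 0.907). Chil3, which had passed the filter only through Satin, differed by 0.97 (interval -0.63 to 2.58, adjusted p = 0.860), and by -0.14 without Beige replicate 1. None of the 4 family probe sets tested was called by limma, and 1 had an unadjusted p under 0.05. Over all probe sets 0 were called between Beige and BL6, and 5.18% had an unadjusted p under 0.05. Without BL6 replicate 1 the calls were 11, and without BL6 replicate 2 they were 8.

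**Figure D2:**
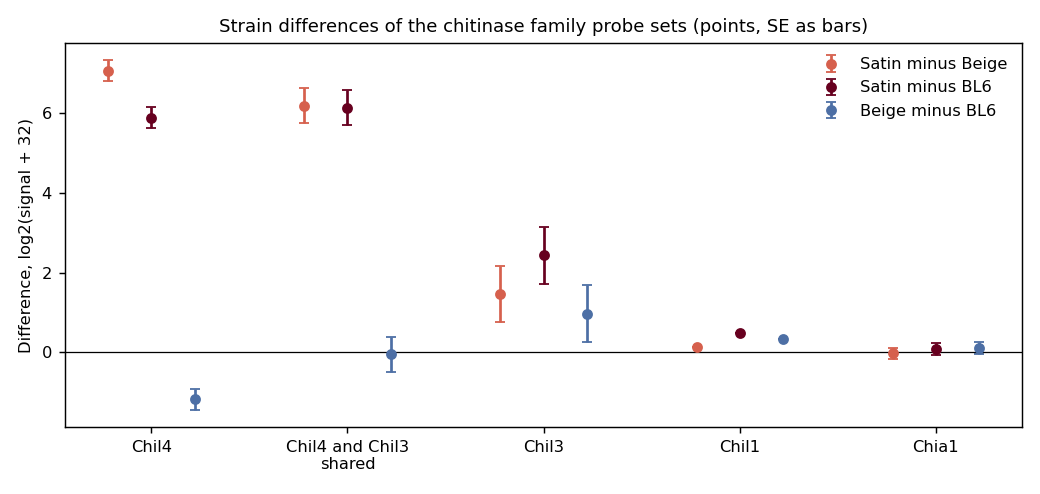
Difference of each chitinase family probe set, log2(signal + 32), for Satin minus Beige, Satin minus BL6 and Beige minus BL6; points are fitted differences and bars their SE (none for Chil1, which was below the filter). Chil4 lies near 7.07 and 5.89 in the Satin differences and at -1.18 between Beige and BL6, while Chia1 lies near 0 in all of them.

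Chil3, Chil4 and Chia1 are neighbours on chromosome 3, in a cluster with Chil5, Chil6 and the oviductal glycoprotein gene Ovgp1, and Chil1 lies on chromosome 1. The genes around the cluster did not follow Chil4. Ovgp1 within it, and the nearest 10 tested genes on each side, made 21 neighbours, of which 0 were called by limma in Satin against the control strains and 3 had an unadjusted p under 0.05, as had 11.8% of all probe sets. Their differences ran from -0.84 to 0.55, with a median of -0.07, beside 0.02 over all probe sets. Between Beige and BL6, 0 of the 21 were called. Chil4 stood at 6.48 and Chil3 at 1.95 between Chia1 at 0.03 and Dennd2d, the next tested gene, at -0.34.

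**Figure D3:**
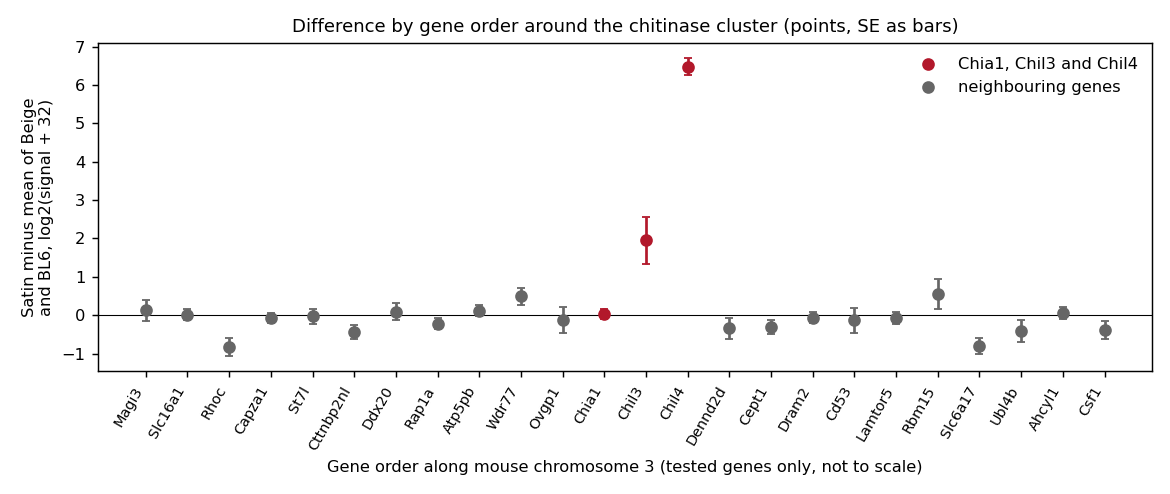
Satin minus the mean of Beige and BL6, log2(signal + 32), for the tested genes around the chitinase cluster in their order along chromosome 3 (not to scale); points are fitted differences and bars their SE. Chil4 at 6.48 and Chil3 at 1.95 stand above neighbours that range from -0.84 to 0.55.

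Of the other family 18 genes, 3 of 6 were on the array under a single symbol and tested, and none was called in Satin. Chid1, a lectin of the secretory and lysosomal compartments, was at -0.09 (SE 0.18, adjusted p = 0.889). Ctbs, the lysosomal chitobiase, differed by 0.16 (SE 0.32, adjusted p = 0.891), and Ovgp1 by -0.12 (adjusted p = 0.931). The enzymes that break down chitobiose and N-acetylglucosamine had 0 of 8 called and a median of 0.01. Gnpda1, a glucosamine-6-phosphate isomerase, differed by 0.77 (SE 0.38, adjusted p = 0.499).

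Type 2 cytokine genes belong to the pathway through which interleukins 4 and 13 raise Chil3 and Chil4 in other mouse tissues. Of 30 genes 28 were on the array and 18 passed the filter. None of the 18 was called in Satin, and at the 1.02% called over all probe sets a list of this size would rarely hold a call, so nothing is read from that count or from those of the other short lists. Of the 18, 7 lay above 0, as did 8286 of all 15838 probe sets tested, and the median was -0.16 beside 0.02 over all probe sets. The ligand genes Il4, Il5, Il13 and Il25 were below the filter. Il33, an epithelial alarm cytokine, differed by 0.39 (adjusted p = 0.506), the receptor chains Il4ra and Il13ra1 by 0.44 (adjusted p = 0.605) and 0.32 (adjusted p = 0.622), and Stat6 by -0.25 (adjusted p = 0.669).

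The targets of that pathway differed among themselves. Itln1, an intestinal lectin, had signals of 83.3 and 354.7 in Satin, 13 and 2.6 in Beige, and 2.6 and 3.7 in BL6. Both Satin arrays were higher, and replicate 2 exceeded replicate 1 as for Chil3, but the difference of 2.16 (SE 0.46) did not pass (limma adjusted p = 0.0784). Itln1 passed the filter on dim probe sets through the Satin arrays, with means of 5.33 in Beige and 5.16 in BL6. Retnlb, a goblet cell protein gene below the filter, was listed at 3.6 and 130 in Satin and between 3.3 and 6.2 on the control arrays. Ccl11, the eosinophil attractant eotaxin, had 300 and 296.8 in Satin, 38.5 and 159.7 in Beige, and 79.5 and 90.2 in BL6, without passing (difference 1.05, SE 0.34, adjusted p = 0.252). Clca1, a goblet cell product, was at 518.5 on Satin replicate 1 and between 2509.7 and 3603.1 on the other arrays.

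Genes that accompany Chil3 in alternatively activated macrophages had 0 of 9 called, where 1.02% of all probe sets were, and a median of -0.16 beside 0.02 over all, with 2 above 0. Retnla, secreted by such macrophages, had signals of 1019.9 and 1127.3 in Satin, 1155.4 and 657.1 in Beige, and 121.6 and 347.2 in BL6. BL6 averaged lowest, but Beige minus BL6 did not pass (1.65, limma adjusted p = 0.859). Nor did the difference between Satin and the mean of the control strains (0.74, SE 0.39, adjusted p = 0.521). The mannose receptor gene Mrc1 (-0.57, SE 0.19, adjusted p = 0.270) and Pparg (-0.60, SE 0.17, adjusted p = 0.194), a lipid-sensing nuclear receptor, had the smallest p. Receptors reported for chitin or for chitinase-like proteins had 0 of 6 called, all below 0, and a median of -0.29. Over all 15838 probe sets tested 8286 lay above 0. Lgals3, a galactose-binding lectin, differed by -0.43 (adjusted p = 0.426).

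Markers of the cells that could carry these transcripts are given by their summed normalised signal. For macrophages and monocytes the sum was 1746 and 2377 in Satin, 2910 and 2607 in Beige, and 2353 and 1846 in BL6, with 0 of 15 called and a median of -0.25. For neutrophils it was 416 and 528 in Satin, 304 and 200 in Beige, and 293 and 242 in BL6, with 1 of 6 called, S100a8. Ngp, Ltf, Mpo, Csf3r and Mmp9 were tested and not called, with differences of 0.03, 0.04, -0.05, 0.76 and 0.19. Camp, Elane, Cxcr2, Mmp8, Lcn2 and S100a9 were below the filter. S100a9 had signals of 21.2 and 92.4 in Satin, 13.7 and 2.9 in Beige, and 30.2 and 1 in BL6. S100a8, a calcium-binding protein gene of neutrophils and inflamed epithelium, rose in Satin by 1.83 (SE 0.30, limma adjusted p = 0.0286). Its signals were 149.3 and 162.1 in Satin against 5.2 and 10.7 in Beige and 3.2 and 17.7 in BL6. It passed the filter on dim probe sets (5.74) through the Satin arrays, with means of 5.33 in Beige and 5.49 in BL6. Its call therefore depends on its level in Satin in that way too, and nothing further is read from it. That call was lost when any Satin or Beige array was left out (adjusted p between 0.0915 and 0.286).

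Eosinophil and mast cell markers had 0 of 7 called and a median of 0.22, and the eosinophil genes Prg2 and Epx were below the filter. Among B and plasma cell markers 2 of 6 rose, beside 1.02% called over all probe sets tested. All 6 lay above 0, as did 8286 of all 15838 probe sets tested. The summed signals of these markers were 3380 and 4970 in Satin, 762 and 591 in Beige, and 963 and 1515 in BL6. The list and its sum include Pigr, an epithelial immunoglobulin receptor gene, at 971.2 and 2542.6 in Satin and 253.6 to 445.3 elsewhere. Pigr did not pass (difference 1.68, limma adjusted p = 0.0867). The B cell genes Cd79a, Cd79b and Ms4a1 differed by 0.69, 0.14 and 0.25 and were not called. Igha, the heavy chain gene of immunoglobulin A, rose by 3.34 (SE 0.34, adjusted p = 0.00189), and Jchain, which joins it into dimers, rose by 2.00 (SE 0.35, adjusted p = 0.0377). The other probe sets of Igha gave 3.90 and 2.89. The Jchain call was lost when any Satin or Beige array was left out (adjusted p between 0.150 and 0.226). The part of these cells in the Chil4 and Chil3 signals was not tested.

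Chief cells, the known source of Chia1, had marker sums of 21769 and 17648 in Satin, 17534 and 14442 in Beige, and 14030 and 16814 in BL6. Of 7 genes 1 rose, the pepsinogen gene Pga5, by 3.12 (SE 0.23, adjusted p = 4.39e-04). Its signals were 3878.6 and 2797 in Satin, against 357.8 and 275.6 in Beige and 212.7 and 188.1 in BL6. The other 6 chief cell genes tested were not called. Pgc, the main antral pepsinogen, differed by 0.17 (adjusted p = 0.689), and Cblif, the intrinsic factor gene, by 0.17 (adjusted p = 0.882).

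Among mucous neck, antral gland and metaplasia markers 1 of 11 rose (median 0.10), Bpifb1, a secreted gland protein gene, by 4.37 (SE 0.47, adjusted p = 0.00288, and 0.0802 with limma's robust option). Among pit cell markers 1 of 10 fell (median -0.0015), the mucin gene Muc5ac, with a difference of -4.35 (SE 0.15, adjusted p = 4.01e-06). Parietal cell markers had 0 of 10 called and a median of 0.47. All 10 lay above 0, as did 8286 of all 15838 probe sets tested. The sums of these markers were 28305 and 19552 in Satin, 20460 and 18818 in Beige, and 18166 and 17713 in BL6. Slc4a2, the basolateral anion exchanger gene, differed by 0.93 (adjusted p = 0.108). Squamous forestomach markers had 0 of 6 called and a median of -0.03.

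Pancreatic acinar markers varied between arrays of a strain, and 0 of 9 were called. Their sums were 11147 and 43987 in Satin, 12221 and 19272 in Beige, and 12199 and 72377 in BL6. Most of each replicate 1 sum came from Clps, which had deposited signals of 8546.5 to 11092.3 on all arrays, and Cela1 was at 1405.1 or more. The other acinar genes on the array were at 119.2 or less on replicate 1 and 535.6 or more on replicate 2. In each strain both the acinar sum and the Chil4 signal were higher on replicate 2 than on replicate 1. The part of this tissue in the Chil4 signal was not tested. Over all lists, 6 genes were called in Satin, 5 higher and 1 lower, beside 1.02% of all probe sets tested. The lists were chosen with earlier results of these data known, so nothing is read from that total.

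**Figure D4:**
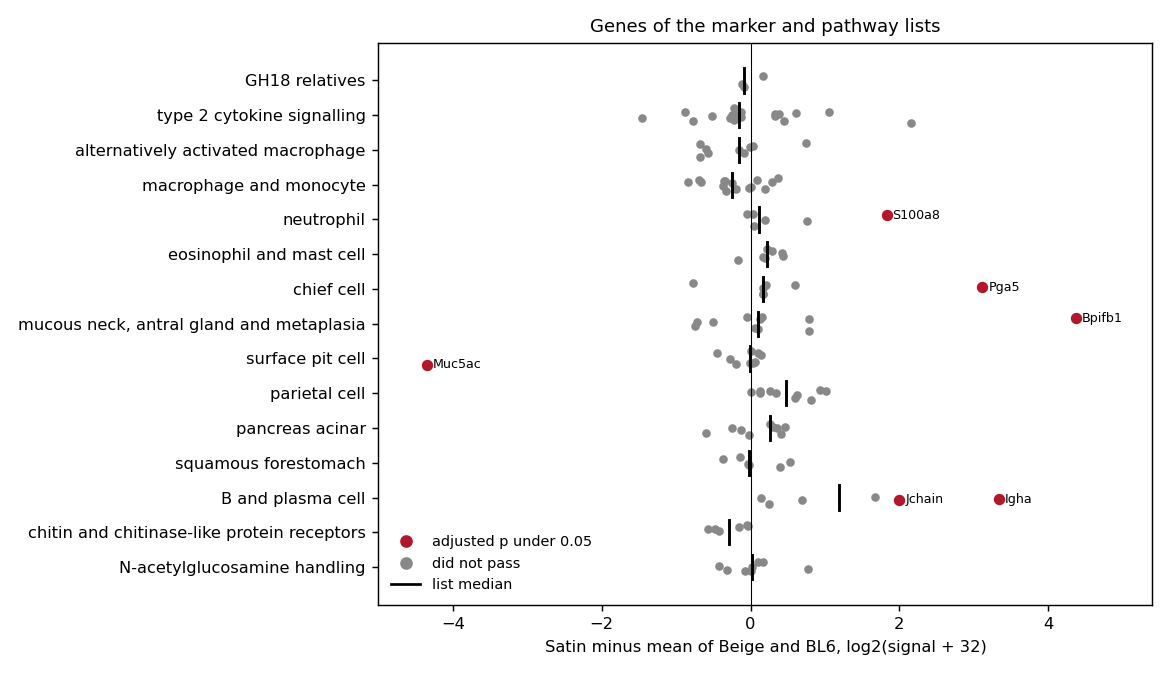
Satin minus the mean of Beige and BL6, log2(signal + 32), for each tested gene of the marker and pathway lists; red points passed an adjusted p under 0.05, grey points did not, and bars mark the list medians. The called genes are Muc5ac at -4.35 and S100a8, Jchain, Pga5, Igha and Bpifb1 between 1.83 and 4.37, and the remaining genes lie between -1.45 and 2.16.

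The patterns most like that of Chil4 over the 6 arrays, by Pearson correlation among 4520 probe sets of other genes spanning at least 1 on the log2 scale, were those of 5 genes. Since Chil4 was chosen for its level in Satin, that these probe sets are higher there is no finding. They belonged to Trav9d-3, a T cell receptor variable segment (0.995), Ctse, the gastric protease cathepsin E (0.988), Cldn3, a tight junction claudin (0.985), S100a8 (0.984) and Ptp4a2, a phosphatase (0.981). The Ctse probe set had signals of 903.1 and 627.4 in Satin, 59.7 and 47.3 in Beige, and 79.8 and 80.7 in BL6, but the brighter probe set of Ctse differed by 0.14. Likewise the Ptp4a2 probe set differed by 1.65 and the brightest one of that gene by -0.55, and those of Trav9d-3 ran from -0.09 to 1.15. All 4 probe sets of Cldn3 were higher in Satin, by 3.05 to 4.07.

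A different set of genes ranked nearest to Chil3. Its nearest patterns were those of Ccl5, a lymphocyte chemokine (0.967), H2-Q10, a class I histocompatibility gene (0.951), Ptprc, the leukocyte surface antigen CD45 (0.944), Coro1a, a leukocyte actin-binding protein gene (0.938), and Pam, a peptide-amidating enzyme gene (0.936). Chil3 too was chosen on its values in Satin, so a higher level of these genes there is no finding. None of them was called in Satin by limma (adjusted p between 0.206 and 0.567), and their part in the Chil3 signal was not tested. Ptprc had signals of 127.5 and 239.2 in Satin, 87.9 and 71.1 in Beige, and 51.7 and 45.7 in BL6. Satin replicate 2 was highest for both Ptprc and Chil3, but the lowest arrays were those of BL6 for Ptprc and Beige replicate 2 for Chil3. Chia1 and Chil1 spanned less than 1 over the arrays, and no likeness was sought for them.

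**Figure D5:**
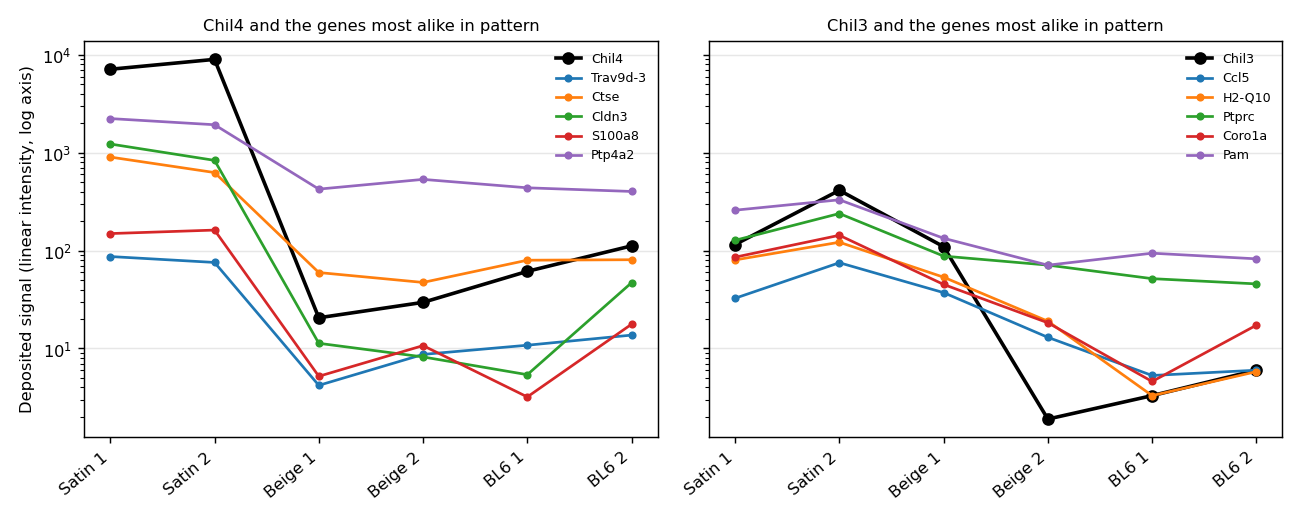
Deposited signal (linear intensity, log axis) on the 6 arrays for Chil4 (left, black) and Chil3 (right, black) with the 5 genes most alike in pattern by Pearson correlation on the normalised scale (coloured). The genes beside Chil4 are high on both Satin arrays, and those beside Chil3 peak on Satin replicate 2 and are also raised on Beige replicate 1 relative to BL6.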

How the data were processed

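RNA from stomach antrum of 3 mouse strains was measured on 6 Affymetrix arrays, 2 per strain, grouped by their titles. The authors deposited a linear intensity for each probe set on each array. Per the labels, RNA was extracted with Trizol and made into biotinylated cRNA. The algorithm behind the signals, its scaling and the detection calls are not stated there. All sample columns were used, and no array had been deposited more than once (35 to 88 equal values per pair). The number of arrays limits the precision.

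The 64 control probe sets were left out. Signals were converted to log2(signal + 32), quantile normalised, and tested with limma 3.58.1 (R 4.3.3; lmFit, eBayes with trend, two-sided, strain as the only factor, 8.95 degrees of freedom after moderation) over 15838 of 22626 probe sets, after the lowest 30% by mean (5.74) had been left out. Calls are those with a p under 0.05 after Benjamini-Hochberg adjustment across this set. This scale understates changes of dim genes. A list gene is represented by its single-symbol probe set with the highest mean. Of 22626 probe sets 20380 carry a single symbol, 691 several and 1555 none, and 20351 were found in RefSeq (GRCm38.p6). Upstream windows of all 4 genes come from RefSeq. The fit was tested on data simulated with the scatter of these arrays. For Satin against the control strains it recovered 21.7% of 2-fold and 71.8% of 4-fold changes. Between Beige and BL6 it recovered 6.10% and 48.2%. A difference that did not pass is therefore no sign that a gene is unchanged.

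The members and lists were chosen with earlier results of these data known. Named genes are the family, Foxq1 and Lyst, from each of 15 lists up to 4 called genes (or the 2 with the smallest p), the 5 nearest patterns of Chil4 and Chil3, and called neighbours of the cluster. Others were named after their values were seen. Alternatives were other scalings, pseudocounts, filters, variance priors, 1 probe set a gene, fewer arrays, each array left out, and the replicate number as a block. Deviations of same-numbered arrays from their strain means correlated at 0.213 (Satin and Beige), 0.310 (Satin and BL6) and 0.140 (Beige and BL6). The replicate number was used as a block only in that alternative, and the main fit did not pair the arrays. Any pairing by that number comes from the data.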

Additional observations from a re-analysis of the deposited data

How the results depend on the processing

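The Chil4 difference between Satin and the control strains kept its direction in all 11 alternatives, at 7.01 with a pseudocount of 8, 5.63 with 100 and 6.28 to 6.68 with 1 array left out. The shared probe set was at 5.41 with a pseudocount of 100 and 5.70 to 6.64 with 1 array left out. Chil3 ran from 1.12 to 2.78 with 1 array left out. Chil1 was at 0.47 as deposited, 0.14 with median centring, 0.49 with the hybridization controls, 0.69 with a pseudocount of 8 and 0.12 with 100. Chia1 was at -0.29 with median centring. The median of all probe sets was higher in Satin by 0.44 as deposited, 0.47 with the hybridization controls and 0.10 with median centring.

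Between Beige and BL6, Chia1 was at -0.076 with median centring, and the shared probe set at 6.61e-04 as deposited and 0.11 with the hybridization controls. With 1 array left out the shared probe set ran from -0.70 to 0.60 and Chil3 from -0.14 to 2.09. All calls there numbered 1 as deposited and 1 with the hybridization controls, and 0 to 11 with 1 array left out.

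Calls in Satin numbered 2016 as deposited (1946 higher, 70 lower), 3479 with the hybridization controls (3404 and 75), 112 with median centring (60 and 52), 101 without a filter, 48 without the trend and 48 to 407 with 1 array left out. Called list genes numbered 25 as deposited, 34 with the hybridization controls and 4 to 8 with 1 array left out. With the replicate number as a block 143 probe sets were called. The block changed no call of a family probe set between Beige and BL6, and no call of a named list gene in Satin. The cause of these changes was not tested. S100a8 was also lost with a pseudocount of 8 (adjusted p = 0.0766) and without a filter (0.0614), and Jchain in both (0.0506 and 0.0829), without the trend (0.175) and with the robust option (0.121). Gast was lost with median centring (0.0697), without a filter (0.0712) and without the trend (0.164). Signals near background limit Chil1, Chil3 and the control values of Chil4.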
